A study of Sus scrofa with 9 samples.

Results

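The mitochondrial ribosomal proteins are the nuclear encoded proteins of the ribosome that works inside mitochondria. Members were all rows of the deposited table whose gene symbol has the form MRPL or MRPS followed by a number and, in a few cases, a letter from A to C, with at least 1 TPM in at least 3 of the 9 libraries. TPM is a transcript abundance scaled to transcript length and to a fixed library total. Of 22629 rows in the table, 63 had such a name and all 63 passed the abundance rule, among 12268 rows that passed it in all. The rule used names and a minimum level, not a change with age.

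The study measured RNA of the left ventricle of neonatal pigs at 3 ages. All animals were wild type and untreated, and the groups were postnatal day 0 (newborn), day 7 and day 15, with 3 libraries each. Libraries are named here by age and by the number in their titles: 4, 5 and 6 at day 0, 2, 5 and 6 at day 7, and 1, 2 and 6 at day 15. Separate animals are not stated for same-age libraries, and each p-value therefore measures only the spread between these samples, which may be technical.

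The mitochondrial ribosome makes the few proteins encoded by mitochondrial DNA, all of them hydrophobic subunits of the respiratory chain and of ATP synthase. Its RNAs come from mitochondrial DNA, whereas all of its proteins are imported from the cytosol, so both genomes have to supply it. Many of its proteins descend from bacterial ribosomal proteins, and others are found only in mitochondria. In heart muscle, which depends on oxidative phosphorylation, inherited defects of several of these proteins cause cardiomyopathy.

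By their known places, 40 members belong to the large subunit, which forms peptide bonds, and 22 to the small subunit, which binds the mRNA. MRPS30 and MRPS18A are counted with the large subunit, where they sit in spite of their names. MRPS36 carries a ribosomal name but is now known as a component of the oxoglutarate dehydrogenase complex of the citric acid cycle. Proteins with a bacterial counterpart made up 22 members of the large and 13 of the small subunit, and mitochondrial additions 17 and 8. A further 6 family genes, MRPL15, MRPL30, MRPL33, MRPL36, MRPL50 and MRPS27, stood in the table under an Ensembl identifier instead of a symbol and were described beside the members, as were 5 ribosomal proteins with other names.

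The median member mRNA was more abundant than the median row tested. Their means over the 9 libraries ran from 4.40 to 92.2 TPM, a ratio of 21.0, with a median of 26.5 TPM beside 7.78 TPM over all rows tested. Of the 63 members, 10 had a mean under 10 TPM, 44 lay between 10 and 50 TPM and 9 lay above 50 TPM. The median was 29.6 TPM for large subunit members and 19.5 TPM for small subunit members. Proteins of 1 complex thus differed widely in mRNA level per transcript length.

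The most abundant member was MRPL41, a mitochondrial addition to the large subunit, at 92.2 TPM over all libraries. It was followed by MRPL51 at 85.8, MRPL24 at 81.7, MRPL28 at 74.8 and MRPL27 at 74.8 TPM, the last 3 with bacterial counterparts. The least abundant were MRPS30 at 4.40, MRPS14 at 4.85, MRPS18C at 5.74, MRPS7 at 5.78 and MRPL19 at 6.39 TPM. Among the top 5, the order was not the same at each age. At day 0 MRPL51 measured 101 to 129.9 TPM, above the 76.4 to 82.2 TPM of MRPL24. At day 15 MRPL51 measured 61.9 to 78.6 TPM, below the 86.1 to 93.5 TPM of MRPL24. Libraries of 1 age also differed, and MRPL41 ranged from 59.6 to 112 TPM within day 7 alone.

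Libraries of 1 age differed in ways that touch every member. The most abundant row, ENSSSCG00000032277, has no symbol. Its share of the TPM was smallest in day 0 replicate 6, at 24.0%, and largest in day 15 replicate 1, at 46.0%, and all other values move against it. Day 0 replicate 6 held the highest value of 38 of the 63 members and day 7 replicate 6 the lowest value of 33. Heart muscle markers were present throughout (summed level of 8 markers 37114 to 47607 TPM), and 1 of the 8, the creatine kinase gene CKM, rose by day 7. Of 9 endothelial markers 2 rose and 1 fell by day 7, and their sum was 229.8 to 271 TPM in newborn, 339 to 376 TPM in day 7 and 214 to 255 TPM in day 15 libraries. Of 10 fibroblast markers 2 rose, with sums of 968 to 1481 TPM, 1669 to 2317 TPM and 1256 to 1534 TPM at the same ages. Macrophage markers summed to 278 TPM in day 15 replicate 2 and to 64.0 to 127 TPM in the other libraries, and 1 of 9 rose by day 7, as did 1 of 8 pericyte and smooth muscle markers and 1 of 4 erythroid ones. By day 15 against day 0, 3 of the 8 pericyte and smooth muscle markers fell and 1 rose, with sums of 220.3 to 357 TPM in newborn and 164 to 179 TPM in day 15 libraries. The smooth muscle genes CNN1 and MYH11 fell by 2.15 and 1.43 on the log2 scale. By the same comparison 2 macrophage markers, 1 fibroblast, 1 erythroid and 1 heart muscle marker rose and 1 endothelial marker fell. No marker found in the table was at 0 in any library. The part of cell composition and of the most abundant row in the changes below was not tested, and in such tissue fewer cells of a type and less RNA per cell cannot be told apart.

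The first question was how the family differed between newborn and week-old hearts. Most member mRNAs were lower at day 7 than at day 0, some of them past the test, and with the TPM as deposited none rose. In a limma fit over all 12268 rows, 15 of 63 members fell with a Benjamini-Hochberg adjusted p under 0.05 and 0 rose, and 26 members, all of them lower at day 7, had an unadjusted p under 0.05. Across all rows tested, 8.88% fell, 7.67% rose and 16.6% were called in either direction. The median log2 fold change was -0.35 over the members and -0.04 over all rows, and 55 members had a negative and 8 a positive value. In 37 members every day 7 library lay below every day 0 library, as it did in 23.8% of all rows, and in 1 member, MRPL49, every one lay above, as in 17.6%. In 29 members the newborn libraries lay above all 6 later ones, as they did in 19.5% of all rows.

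**Figure D1:**
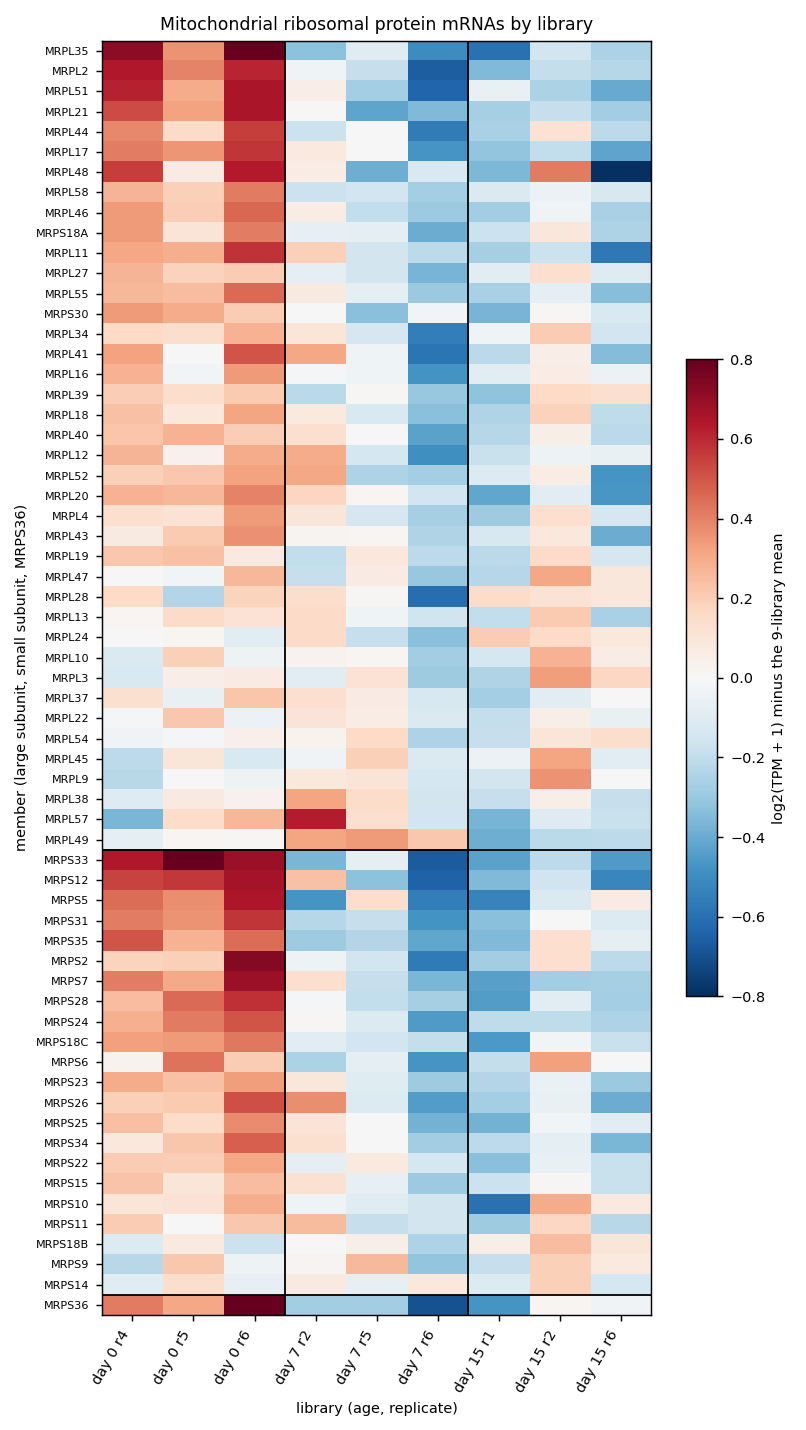
Level of each of the 63 members (rows) in each of the 9 libraries (columns), as log2(TPM + 1) minus the mean over the 9 libraries, with colours clipped at 0.8 on either side. Black lines separate the ages and the large subunit, the small subunit and MRPS36; within each block members are ordered by their change from day 0 to day 7, and most rows are red in the 3 day 0 libraries and pale or blue afterwards.

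The count of members that fell rested on single libraries. It was 1 (MRPS33) without day 0 replicate 6, when 1.60% of all rows fell. It was 3 without day 0 replicate 4 (3.23% of all rows) and 3 without day 7 replicate 6 (2.89%). It was 8 without day 7 replicate 5 (6.24%) and 9 without day 7 replicate 2 (5.13%). The median over the members was -0.30 without day 0 replicate 6, -0.23 without day 7 replicate 6 and -0.46 without day 7 replicate 2.

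Small subunit members held 8 of the 15 falls, out of 22, and their median log2 fold change was -0.44. Large subunit members held 6, out of 40, with a median of -0.32, and the remaining fall was that of MRPS36. By origin, 9 of 35 proteins with a bacterial counterpart and 5 of 25 mitochondrial additions fell, with medians of -0.34 and -0.35. Whether these groups differ in their change was not tested.

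MRPS33, a small subunit protein found only in mitochondria, had the largest change of the family. It measured 79.4, 92.9 and 82.2 TPM in newborns, 38.9, 47.7 and 31.5 TPM at day 7, and 37.2, 43.4 and 36.7 TPM at day 15. The day 0 libraries stood clear of all 6 later libraries, while the 2 later ages overlapped. Its log2 fold change was -1.10 ± 0.18 (SE) by day 7, with a limma adjusted p of 0.00518. On the log2(TPM + 1) scale, MRPS33 was the sole member called with a fall of at least 2-fold. Of all rows, 2.51% had such a call by day 7 and 4.39% by day 15 against day 0. MRPS33 passed under all 22 alternative settings tried, by day 7 and by day 15 against day 0.

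Other small subunit proteins fell beside it. MRPS12, the counterpart of a bacterial protein of the decoding centre, measured 48.8, 49.8 and 53.5 TPM at day 0 and 39.3, 26.3 and 20.9 TPM at day 7 (log2 fold change -0.84 ± 0.22, limma adjusted p 0.0240). The day 7 libraries were all lower but spread almost 2-fold, replicate 2 lying nearest to the newborn level. MRPS31, a mitochondrial addition, measured 39.1, 37.9 and 43.9 TPM and then 24.8, 25.6 and 20.7 TPM (-0.74 ± 0.17, limma adjusted p 0.0147), so that its groups were tight and well apart. MRPS35, also an addition, went from 22.6, 19.2 and 21.8 to 12.7, 13.2 and 11.5 TPM (-0.72 ± 0.17, limma adjusted p 0.0191).

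MRPS5, MRPS7, MRPS28 and MRPS24, all counterparts of bacterial proteins, completed the small subunit group, with log2 fold changes of -0.78, -0.61, -0.59 and -0.59 and limma adjusted p-values of 0.0331, 0.0446, 0.0410 and 0.0362. MRPS5 measured 42.8, 40.6 and 49.2 TPM at day 0 and 22.1, 34.3 and 20.9 TPM at day 7, with replicate 5 of day 7 apart from the other two. MRPS7 and MRPS28 were low throughout, at 7.09 to 10.7 TPM at day 0 and 4.09 to 6.69 TPM at day 7. At such levels the added 1 TPM makes the log2 value smaller than the fold of the TPM themselves.

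In the large subunit, MRPL35 had the largest fall. This counterpart of a small bacterial protein measured 25.7, 19.9 and 28.4 TPM at day 0 and 11.98, 14.2 and 10.51 TPM at day 7, with a log2 fold change of -0.95 ± 0.20 and a limma adjusted p of 0.0107. MRPL2, a conserved protein that binds the RNA of the peptidyl transferase region, measured 103, 86.8 and 101 TPM and then 64.1, 57.5 and 41.2 TPM (-0.84 ± 0.19, limma adjusted p 0.0133). MRPL51 held the highest single value of the family, 129.9 TPM in day 0 replicate 6, beside 126 and 101 TPM in the other newborn libraries. At day 7 it measured 85.1, 67.9 and 52.5 TPM, and the fall of 0.81 ± 0.20 on the log2 scale had a limma adjusted p of 0.0210. In all 3 genes every newborn library was above every later one.

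MRPL21 went from 12.6, 10.9 and 13.9 TPM to 8.49, 6.08 and 6.43 TPM (log2 fold change -0.76 ± 0.18, limma adjusted p 0.0163). MRPL17 and MRPL58 were at the threshold, with limma adjusted p-values of 0.0499 and 0.0498. MRPL58, a peptidyl-tRNA hydrolase built into the large subunit that releases stalled chains, measured 9.30, 8.74 and 10.4 TPM in newborns, 6.56, 6.68 and 6.07 TPM at day 7 and 6.88, 7.24 and 6.81 TPM at day 15. It was the 1 member whose day 7 libraries all lay below those of both other ages, as did 0.497% of all rows. MRPL58 kept its call in 6 of the 22 alternative settings and MRPL17 in 8.

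MRPS36, the dehydrogenase component, measured 77.5, 72.0 and 117 TPM in newborns, 47.4, 47.5 and 35.2 TPM at day 7 and 41.5, 58.5 and 56.7 TPM at day 15. Replicate 6 of day 0 was far above the other two newborn libraries. The log2 fold change by day 7 was -0.998 ± 0.22 with a limma adjusted p of 0.0143, and it passed 0.05 no longer without that library or without day 7 replicate 6. Without MRPS36, 14 of 62 members fell.

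**Figure D2:**
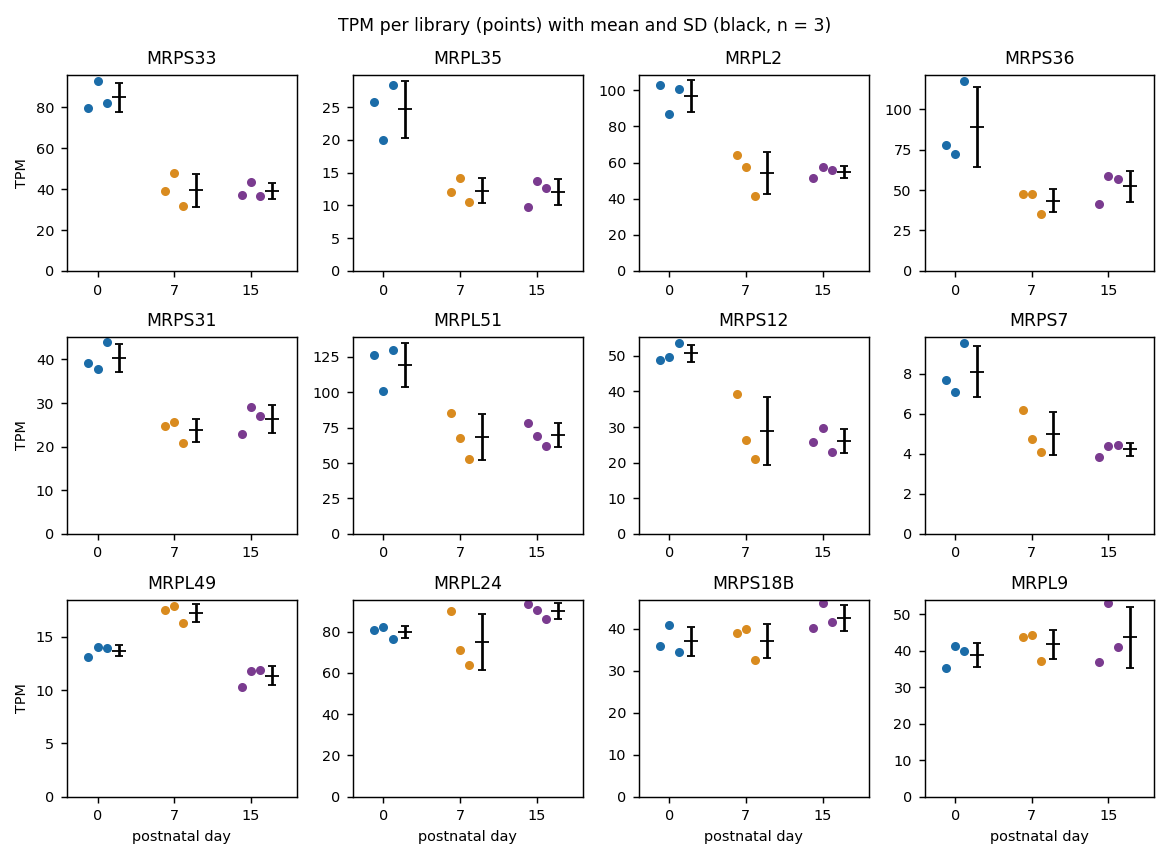
TPM in each library (coloured points) of 8 members that fell by day 7 (MRPS33 to MRPS7) and of 4 that did not (MRPL49, MRPL24, MRPS18B, MRPL9), by postnatal day, with the mean and SD of 3 libraries in black. In the first 8 panels all newborn points lie above all later points, whereas MRPL49 is highest at day 7 and in the last 3 panels the points of day 0 and day 7 overlap.

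For some other members the libraries of day 0 and day 7 overlapped. MRPL54, a mitochondrial addition to the large subunit, measured 39.2, 39.7 and 41.0 TPM in newborns, 40.8, 44.7 and 33.5 TPM at day 7 and 35.0, 42.7 and 44.2 TPM at day 15, with a log2 fold change of -0.02 ± 0.17 by day 7. MRPL24, a protein at the exit of the peptide tunnel, measured 80.9, 82.2 and 76.4 TPM, then 90.2, 71.3 and 64.0 TPM, then 93.5, 90.5 and 86.1 TPM. Its libraries overlapped between day 0 and day 7, and those of day 15 were all above those of day 0, which was so for no other member. MRPL9, MRPL45, MRPS14 and MRPS9 likewise had first-week log2 fold changes between 0.01 and 0.10, each with an SE of 0.17 to 0.20. With errors of that size, small changes in either direction could not be detected for any of them.

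MRPL49, an addition to the large subunit, had the largest positive first-week value. It measured 13.1, 14.1 and 14.0 TPM in newborns, 17.5, 17.9 and 16.3 TPM at day 7, and 10.3, 11.8 and 11.9 TPM at day 15. Every day 7 library was above every library of the other ages, a pattern found in 6.15% of all rows. The log2 fold change was 0.31 ± 0.15 by day 7 (limma adjusted p 0.175) and -0.56 ± 0.15 from day 7 to day 15 (limma adjusted p 0.197). The limma F test over the 3 ages gave an adjusted p of 0.0484, as a call that 18 of 63 members and 22.0% of all rows shared. The difference of the 2 steps was 0.87 ± 0.27, with a limma adjusted p of 0.111.

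**Figure D3:**
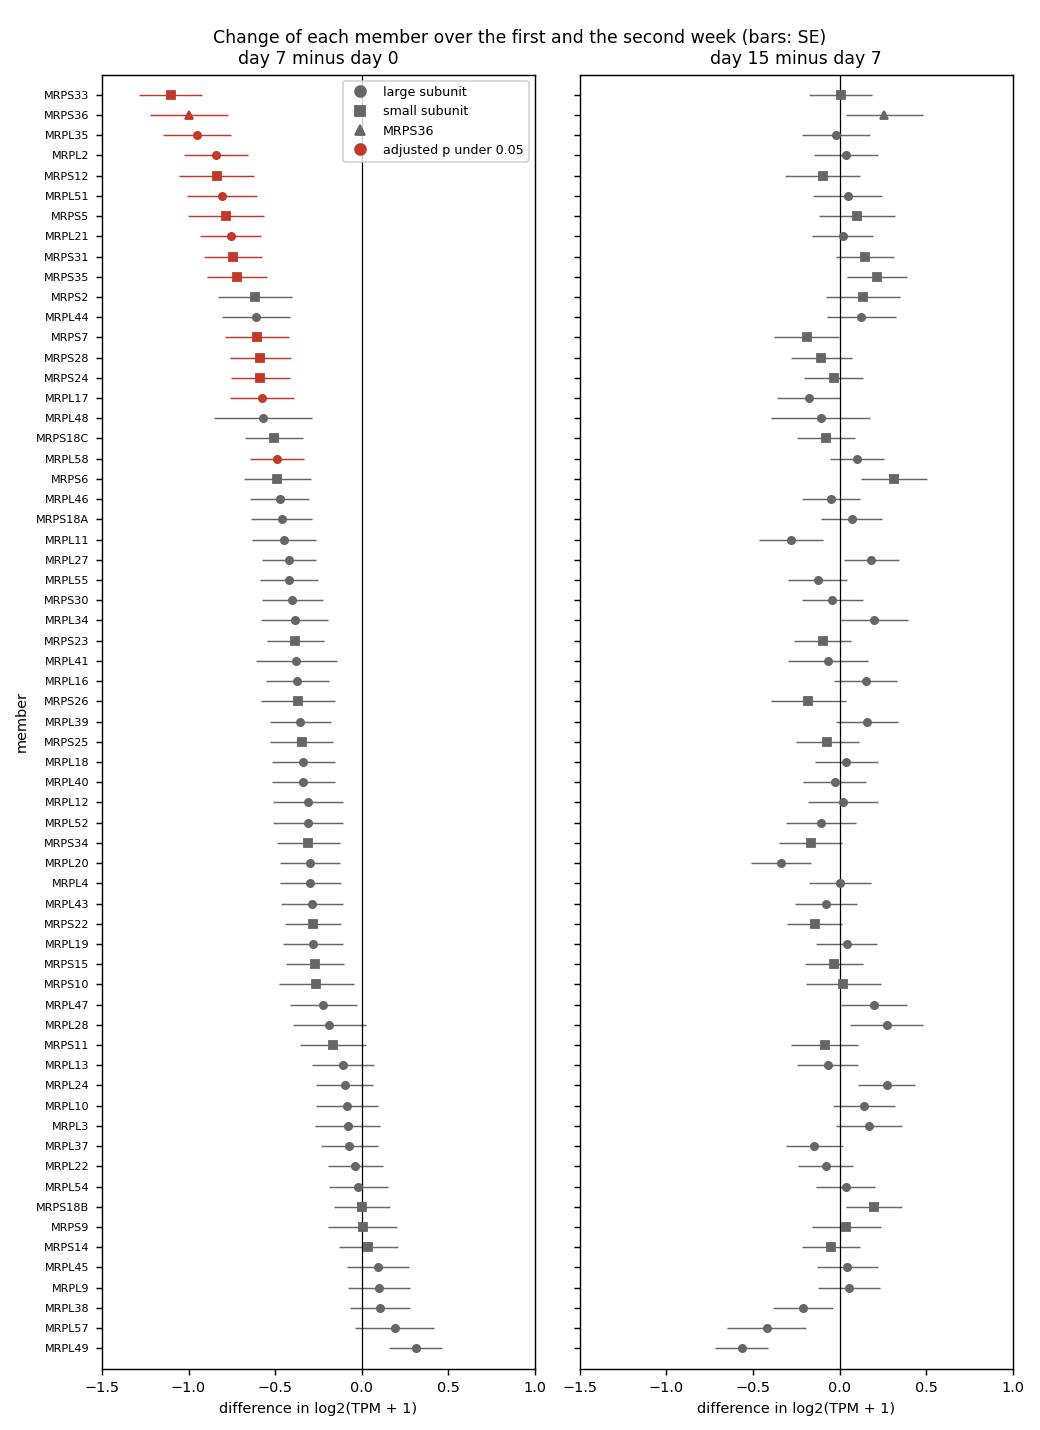
Change of each of the 63 members in log2(TPM + 1) from day 0 to day 7 (left) and from day 7 to day 15 (right), with SE bars from the limma fit and members in the same order in both panels. The 15 members with an adjusted p under 0.05 are in red and all lie on the left of 0 in the left panel, the right panel has none, and MRPL49 stands at the bottom with the largest first-week and the smallest second-week value.

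The next question was how the family differed between week-old and 15-day hearts. No member passed the test, with 0 rises and 0 falls in the limma fit and 1 member, MRPL49, at an unadjusted p under 0.05. Few rows of any kind passed, 0.0408% rising, 0.13% falling and 0.171% called in all. The median log2 fold change was 0.003 over the members and -0.15 over all rows, with 32 members positive and 31 negative. No overlap between both sets of libraries was seen in 2 members that were higher at day 15, MRPS18B and MRPL58 (1.46% of all rows), and in 1 that was lower, MRPL49 (17.9%).

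The largest second-week value was that of MRPS6, a counterpart of a bacterial small subunit protein. It measured 46.9, 62.6 and 53.2 TPM in newborns, 38.5, 43.7 and 32.9 TPM at day 7 and 40.2, 58.2 and 46.2 TPM at day 15, and its ages overlapped. Its log2 fold change over the second week was 0.31 ± 0.19, with a limma adjusted p of 0.513. MRPL20, a large subunit protein with a bacterial counterpart, had a value of -0.34 ± 0.17 (limma adjusted p 0.432) and was lower in each later library than in any newborn one. The sign of the median depended on single libraries, being -0.11 without day 7 replicate 6 and -0.10 without day 15 replicate 2.

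Whether the first and the second week differed was tested as the difference of both steps. In the limma fit 0 of 63 members passed, with a smallest adjusted p of 0.0943 and 13 members at an unadjusted p under 0.05, while 1.92% of all rows passed. A fall confined to the first week was therefore not shown for any single member.

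The third comparison set day 15 against day 0. It shares the day 0 libraries with the first and the day 15 libraries with the second, so the values below are not independent of those above. In the limma fit 18 of 63 members fell and 0 rose (30 at an unadjusted p under 0.05, all lower at day 15), where 18.4% of all rows fell, 5.53% rose and 23.9% were called. The median log2 fold change was -0.39 over the members and -0.19 over all rows, and 54 members were negative. All day 15 libraries lay below all day 0 libraries in 35 members (30.5% of all rows) and above them in 1, MRPL24 (9.45%). The number that fell was 2 without day 0 replicate 6 (5.04% of all rows), 10 without day 0 replicate 4 (12.5%) and 4 without day 15 replicate 6 (8.32%).

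By subunit, 9 of 40 large and 8 of 22 small subunit members fell, with medians of -0.29 and -0.48, and MRPS36 made the last. By origin, 13 of 35 proteins with a bacterial counterpart and 4 of 25 additions fell. The smallest adjusted p-values belonged to MRPS33 (log2 fold change -1.10 ± 0.18, limma adjusted p 0.00302), MRPL35 (-0.97 ± 0.20, 0.00688), MRPL2 (-0.81 ± 0.19, 0.0109) and MRPS12 (-0.94 ± 0.22, 0.0110). MRPS7, a low small subunit mRNA, measured 7.69, 7.09 and 9.55 TPM at day 0 and 3.83, 4.39 and 4.44 TPM at day 15, a log2 fold change of -0.80 ± 0.19 with a limma adjusted p of 0.0115.

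Some members had lower means at each later age. MRPL11, which forms the base of the stalk that receives translation factors, measured 46.7, 46.0 and 56.3 TPM in newborns, 42.9, 33.7 and 32.2 TPM at day 7 and 30.9, 33.2 and 24.8 TPM at day 15. It fell by 0.73 ± 0.18 on the log2 scale by day 15 (limma adjusted p 0.0152), and its value by day 7 was -0.45 ± 0.18 (limma adjusted p 0.107). MRPL20 had mean levels of 12.5, 10.05 and 7.76 TPM at the 3 ages, and MRPL17 of 33.3, 22.2 and 19.3 TPM. MRPL12 and MRPL10, the stalk proteins that MRPL11 neighbours, did not pass in any comparison, MRPL12 at 33.6 ± 3.42, 27.5 ± 7.81 and 27.2 ± 1.41 TPM (SD, n = 3) and MRPL10 at 13.9 ± 1.69, 13.0 ± 1.62 and 14.5 ± 2.25 TPM.

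The 3 paralogues of the bacterial protein S18 took different places in the ribosome and gave different values. MRPS18A, in the large subunit, measured 42.0, 35.4 and 44.0 TPM in newborns, 31.4, 31.2 and 24.8 TPM at day 7 and 29.1, 35.2 and 27.6 TPM at day 15 (log2 fold change by day 15 -0.39 ± 0.18, limma adjusted p 0.120). MRPS18B, in the small subunit, measured 35.9, 40.9 and 34.4 TPM, then 39.0, 40.1 and 32.6 TPM, then 40.3, 46.2 and 41.7 TPM, and had the largest day 15 value of the family, 0.20 ± 0.16 (limma adjusted p 0.381). MRPS18C, at the place of the bacterial protein, measured 7.29, 7.36 and 7.87 TPM, then 5.21, 4.96 and 4.80 TPM, then 3.80, 5.51 and 4.83 TPM, a fall of 0.58 ± 0.17 by day 15 with a limma adjusted p of 0.0271. MRPS18A and MRPS18C were thus lower in every later library than in any newborn one, and MRPS18B was not. The differences between the paralogues were not tested.

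Of members known for inherited heart muscle disease, MRPL44, MRPL3 and MRPS22 did not pass the test in any comparison with the TPM as deposited. MRPL44 came nearest, with 29.6, 25.1 and 33.3 TPM at day 0 and 19.8, 22.4 and 14.9 TPM at day 7 (log2 fold change -0.61 ± 0.20, limma adjusted p 0.0530), and it fell by day 7 under each of the 3 other scalings, with limma adjusted p-values of 0.0169 to 0.0236. MRPS22 measured 21.4 ± 1.00, 17.5 ± 1.44 and 15.7 ± 1.61 TPM at the 3 ages (SD, n = 3) and MRPL3 31.1 ± 2.26, 29.5 ± 4.24 and 33.5 ± 6.76 TPM. MRPL3 libraries overlapped between all ages, and MRPL3 rose by day 15 under 2 of the other scalings, described with them below, while the newborn libraries of MRPS22 and MRPL44 were above all later ones.

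MRPL46 and MRPS11 lie next to each other in RefSeq's pig annotation. MRPL46 measured 50.01, 45.3 and 54.4 TPM at day 0 and 32.2, 38.5 and 32.7 TPM at day 15, and its fall of 0.52 ± 0.17 on the log2 scale had a limma adjusted p of 0.0413. MRPS11 measured 10.3, 8.78 and 10.4 TPM and then 7.02, 9.99 and 7.38 TPM, with a value of -0.25 ± 0.19 (limma adjusted p 0.348). MRPL46 was the more abundant of the pair in each of these libraries.

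The members that varied most between libraries of 1 age were MRPL48, MRPL41, MRPL57, MRPS36 and MRPS5. MRPL48 measured 36.7, 25.9 and 38.9 TPM in newborns, 25.8, 18.6 and 22.6 TPM at day 7 and 19.1, 33.3 and 13.3 TPM at day 15. Its day 15 libraries spanned nearly the whole range of the gene, and no comparison passed. MRPL57 measured 17.4, 25.2 and 27.5 TPM, then 35.6, 25.1 and 20.3 TPM, then 17.3, 21.1 and 19.97 TPM, with overlap between all ages.

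Relative levels within a library do not depend on how the library was scaled. The summed TPM of the large subunit over that of the small subunit was 2.66, 2.34 and 2.51 at day 0, 2.99, 2.77 and 2.86 at day 7 and 3.02, 2.82 and 2.78 at day 15. Each later library was above each newborn one. Without MRPS33 the ratios were 3.07, 2.74 and 2.86 at day 0, 3.26, 3.08 and 3.13 at day 7 and 3.34, 3.09 and 3.04 at day 15, when day 15 replicate 6 fell within the newborn range. MRPS33 itself was 0.154, 0.173 and 0.140 of the rest of the small subunit at day 0 and 0.0886 to 0.114 in the later libraries.

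The summed level of all 63 members was 2254, 2178 and 2469 TPM in newborns, 1955, 1807 and 1446 TPM at day 7, and 1641, 1972 and 1700 TPM at day 15. Taken as parts per 1000000 of the TPM left without the most abundant row, it was 3442, 3231 and 3248 at day 0, 2902, 2687 and 2304 at day 7, and 3041, 2840 and 2623 at day 15. On both scales the newborn libraries were above all others and those of the 2 later ages overlapped.

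**Figure D4:**
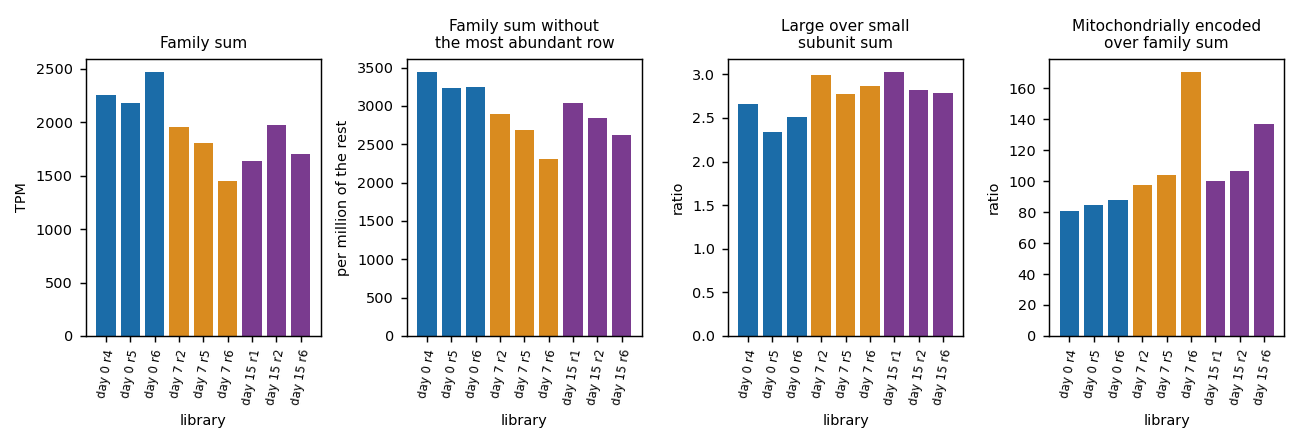
Bars, 1 per library, of the summed TPM of the 63 members, of that sum per 1000000 of the TPM left without the most abundant row, of the large over the small subunit sum, and of the summed TPM of mitochondrially encoded proteins over the family sum, coloured by age. The first 2 panels are highest and the last 2 lowest in the 3 day 0 libraries, and day 7 replicate 6 stands apart in the last panel at 170.3.

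The products of the mitochondrial ribosome are the 13 proteins encoded by mitochondrial DNA, and no change of their mRNAs passed the test. In the limma fit 0 of 13 passed in any comparison, with 1, 1 and 0 at an unadjusted p under 0.05, and the median log2 fold change was 0.22 by day 7 and -0.02 by day 15 against day 0. COX1, a subunit of cytochrome c oxidase and the most abundant of them, had a log2 fold change of 0.07 ± 0.18 by day 7. Their summed TPM was 80.8, 84.7 and 87.8 times that of the 63 members at day 0, 97.4, 104 and 170.3 times at day 7, and 100.3, 106 and 137 times at day 15. Every later library exceeded every newborn one.

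Scaling moved all rows and the members with them. The median of all rows by day 7 was -0.04 as deposited, 0.01 with median-of-ratios scaling, 0.02 without the most abundant row and 0.11 without mitochondrial genes and the 20 most abundant rows. By day 15 against day 0 it was -0.19, 0.01, -0.07 and 0.02. Set against these, the members' median stood lower by 0.31, 0.30, 0.30 and 0.30 by day 7 and by 0.20, 0.16, 0.17 and 0.16 by day 15. Calls of a fall by day 7 numbered 20, 19 and 17 with the 3 other scalings, beside 15.3%, 13.5% and 10.1% of all rows. MRPL44, MRPS2 and MRPS18C, which did not pass by day 7 as deposited, fell in all 3 of these. By day 15 against day 0 the numbers were 12, 19 and 14, beside 15.4%, 19.5% and 14.3% of all rows. Under all 4 scalings 14 members fell by day 7, the 15 above without MRPL58, and 12 fell by day 15 against day 0.

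Calls of a rise appeared only after rescaling. With each of the 3 other scalings MRPL49 rose by day 7, by 0.37 to 0.49 on the log2 scale with limma adjusted p-values of 0.0141 to 0.0304, while 15.6%, 14.6% and 19.2% of all rows rose. By day 15 against day 0, MRPL9, MRPS18B, MRPL3 and MRPL45 rose with median-of-ratios scaling, by 0.40, 0.44, 0.33 and 0.38, and the same 4 rose without mitochondrial genes and the 20 most abundant rows. The shares of all rows that rose under these scalings were 15.6% and 14.7%. MRPL45 is the protein that holds the ribosome to the inner membrane. With the deposited TPM, and without the most abundant row, none of the 4 passed.

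**Figure D5:**
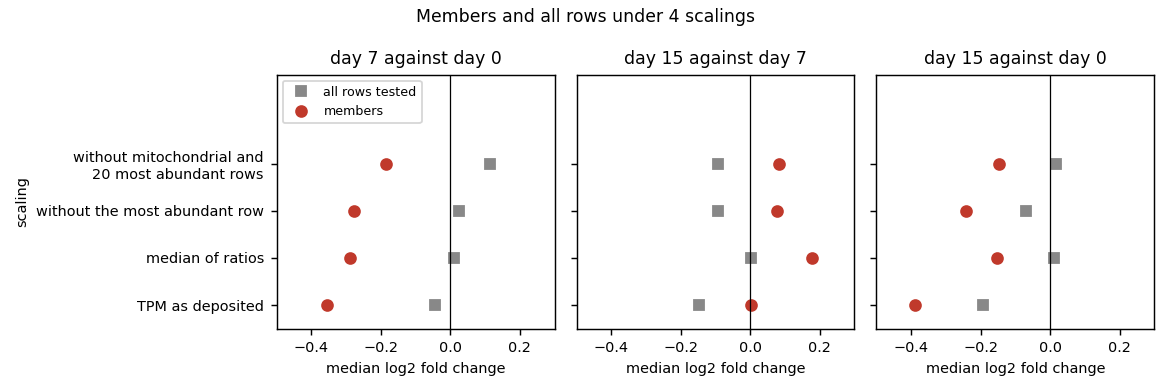
Median log2 fold change of the 63 members (red circles) and of all rows tested (grey squares) in the 3 comparisons, with TPM as deposited and under 3 other scalings. Both medians shift with the scaling, and in all 4 the members lie to the left of all rows in both comparisons with day 0 and to the right in that of day 15 with day 7.

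Ribosomal genes outside the name rule are given for completeness. Of the 6 family genes listed by identifier, MRPL15 and MRPL33 fell by day 7 in the limma fit, and MRPL15 by day 15. MRPL15 measured 33.5, 28.3 and 38.0 TPM in newborns, 19.9, 18.3 and 15.6 TPM at day 7 and 15.3, 17.4 and 13.8 TPM at day 15, and its newborn libraries were far above the rest. MRPL33 was more abundant than any member, with 147, 163 and 151 TPM at day 0 and 120.03, 103 and 86.5 TPM at day 7. Of 5 small or large subunit proteins with other names, CHCHD1 fell by day 7 (log2 fold change -0.53 ± 0.16, limma adjusted p 0.0452), and PTCD3, GADD45GIP1 and CHCHD1 fell by day 15. DAP3, a GTP-binding protein of the small subunit, had values of -0.20 ± 0.17 and -0.06 ± 0.17 and did not pass.

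Some factors that work with the ribosome fell as well, while 8.88% of all rows fell by day 7 and 18.4% by day 15 against day 0. Of 15 genes of mitochondrial translation and related functions, 6 fell by day 7 and 6 by day 15 against day 0, and 0 rose. The list includes SLIRP, LRPPRC and LETM1, which are not translation factors in the strict sense and all fell by day 15. SLIRP, which with LRPPRC stabilises mitochondrial mRNAs, measured 191, 167 and 193 TPM in newborns, 128, 110.1 and 105 TPM at day 7 and 102, 98.8 and 104 TPM at day 15 (log2 fold change by day 7 -0.68 ± 0.15, limma adjusted p 0.0151). The elongation factor GFM1 measured 29.2, 25.9 and 31.5 TPM and then 18.3, 18.6 and 14.7 TPM (-0.72 ± 0.17, limma adjusted p 0.0161). The release factors MTRF1L and MTRF1 fell as well, while the abundant elongation factor TUFM, at 90.0 to 137 TPM, did not pass. The median was -0.42 by day 7.

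Of 29 assembly and rRNA modification factors, 3 fell by day 7 and 6 by day 15, with medians of -0.19 and -0.24, or 10.3% and 20.7% of that list, near the shares of all rows. AFG3L2, a protease that matures the large subunit protein MRPL32, measured 80.7, 66.1 and 89.5 TPM in newborns, 41.7, 49.6 and 35.8 TPM at day 7 and 39.6, 47.9 and 42.4 TPM at day 15. MRM3, a methyltransferase of the large rRNA, fell by 0.73 ± 0.18 on the log2 scale and C1QBP by 0.65 ± 0.19 by day 7, with limma adjusted p-values of 0.0211 and 0.0381. Of 17 genes of mitochondrial transcription and RNA processing, 4 fell by day 7, TFB2M, SUPV3L1, POLRMT and MTPAP, and 3 by day 15, which was 17.6% of the list. POLRMT, the mitochondrial RNA polymerase, measured 23.2, 17.6 and 31.6 TPM in newborns, 12.3, 13.8 and 10.2 TPM at day 7 and 8.71, 12.1 and 10.4 TPM at day 15, its newborn libraries being the highest and the most scattered.

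Of 22 mitochondrial aminoacyl-tRNA synthetases and related enzymes, 4 fell by day 7 and 6 by day 15. GARS, which also charges tRNA in the cytosol, led them with a log2 fold change of -1.19 ± 0.22, followed by MARS2, EARS2 and QRSL1, which work only in mitochondria, at -0.77, -0.67 and -0.59. Of 6 genes listed for the insertion and assembly of mitochondrial products in the inner membrane, SMIM20 and TIMM21 fell in both comparisons with day 0. The insertases OXA1L and COX18 did not pass in any comparison. Of 12 nuclear regulators of mitochondrial genes, MYC, ESRRA and PPRC1 fell by day 7, and 5 of the 12 by day 15. ESRRA, a nuclear receptor that drives such genes, measured 169.9, 126 and 209.9 TPM at day 0 and 81.3, 91.9 and 60.4 TPM at day 7. In none of these lists did a gene rise, and in the second week none passed.

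The cytosolic ribosomal proteins, which build the ribosome outside mitochondria, were measured in the same libraries. They were taken by symbol alone, and rows under an Ensembl identifier were not added, so the list is not complete. The list also holds the like-named RPL3L, RPL26L1 and RPL7L1. Of 45 tested, 6 fell by day 7, or 13.3% of the list, where 8.88% of all rows fell. By day 15 against day 0, 37 fell and 1 rose, where 18.4% of all rows fell and 5.53% rose. The medians of the list were -0.38 and -0.71. Its second-week median was -0.29 beside 0.003 for the members, a difference that was not tested. RPL3, a protein of the peptidyl transferase region of the large cytosolic subunit, measured 136, 125 and 158 TPM in newborns, 97.97, 72.3 and 57.3 TPM at day 7 and 44.9, 53.2 and 39.1 TPM at day 15. The summed TPM of the cytosolic list was 10.8 to 11.5 times that of the mitochondrial members at day 0, 10.8 to 12.2 times at day 7 and 8.51 to 9.81 times at day 15. The ratio thus overlapped between the first 2 ages and was lower in all 3 day 15 libraries. Near-identical copies exist for many of the cytosolic genes, and the handling of reads that fit several copies is not stated in the labels.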

How the data were processed

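The authors deposited 1 table of TPM, transcript abundances scaled to transcript length, with 22629 rows and 1 column for each of the 9 libraries. Per the labels' protocols, RNA was extracted from frozen left ventricle and made into stranded mRNA libraries. The submitters' processing notes list kallisto 0.43.1, HISAT2 2.0.5 and Trimmomatic 0.33, with no role or order, per the labels. Not given in the sources used here are the genome build, the annotation and the assignment of reads shared with pseudogene copies. Depth cannot be read from TPM, so it is unknown and counting intervals are not given.

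Rows with at least 1 TPM in at least 3 libraries were tested (12268). With limma 3.58.1 (R 4.3.3), log2(TPM + 1) of all 9 libraries was fitted with a mean for each age and empirical Bayes moderation with a trend, which left 6 residual degrees of freedom, and p-values were adjusted by the Benjamini-Hochberg method over all rows, separately for each contrast, with a threshold of 0.05. Fold changes are on the log2(TPM + 1) scale, which understates the change of low genes. Exact permutation tests were not used, since the smallest two-sided p for 3 against 3 is 0.1. The fit was also run on simulated data with independent normal noise in each row. That simulation held no shifts of whole libraries, so it says nothing about their effect on the calls. Sums and ratios were computed within each library with pandas 2.3.3.

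Members, gene lists, subunit assignments and tests were chosen with earlier results of these data known. Named with values were, by rule, in each contrast and direction the 10 called members of smallest adjusted p, the 5 highest and 5 lowest means, the largest and smallest fold change of each contrast, 12 members fixed by their roles and the 5 with the largest spread within ages. Other members were named after their values were seen. Of each other list, up to 4 genes per contrast and the most abundant gene were considered. Gene identifiers and neighbours were matched through RefSeq tables for Sscrofa11.1, where MRPL21 and MRPS12 had no entry, and no coordinates or sequences are given. As alternatives the pseudocount was set to 0.1 or 5, the filter was removed or raised to a mean of 5 TPM, 3 other scalings were applied, the trend was dropped, a robust fit was made, each pair of ages was fitted alone, a replicate block was added, and single libraries were left out. Rescaling without the most abundant row together with leaving out replicate 6 of day 0 or of day 7 was chosen after seeing the data.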

Additional observations from a re-analysis of the deposited data

How the results depend on the processing

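No called value of a member changed sign under any of the 22 alternatives. Of the member values under them, over all tests, 6426 kept their side of the threshold, 294 lost a call and 74 gained one. Each age has 3 libraries, and their depth is unknown. Leaving out 1 library gave 1 to 17 members that fell by day 7 (lowest without day 0 replicate 6) and 2 to 20 by day 15 against day 0 (lowest without the same library), and the cause was not tested. With the TPM rescaled without the most abundant row and without day 0 replicate 6, 9 members fell by day 7 and 9 by day 15 against day 0 (5.36% and 10.04% of all rows); rescaled and without day 7 replicate 6, 9 fell by day 7 (7.61%).

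Members that rose numbered 1 by day 7 with median-of-ratios scaling, 1 without the most abundant row and 1 without mitochondrial and the 20 most abundant rows, and 4 and 4 by day 15 against day 0 with the first and the last of these. All rows that rose made up 15.6%, 14.6% and 19.2% by day 7 and 15.6% and 14.7% by day 15 against day 0. The members' median by day 7 was -0.185 without mitochondrial and the 20 most abundant rows and -0.189 rescaled and without day 7 replicate 6. By day 15 against day 0 it was -0.152 with median-of-ratios scaling, -0.244 without the most abundant row, -0.147 without mitochondrial and the 20 most abundant rows, and -0.241 and -0.244 rescaled and without day 0 or day 7 replicate 6. The second-week median was 0.177 with median-of-ratios scaling and changed sign to -0.113 without day 7 replicate 6, to -0.0965 without day 15 replicate 2 and to -0.0136 rescaled and without day 7 replicate 6. Over the libraries left out singly it ran from -0.113 to 0.0603. The shift with scaling follows from its construction, since all rows shift too; for the left-out libraries the cause was not tested.

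The replicate numbers in the titles are shared by some libraries of different ages, but correlations of their deviations from the age means were 0.003, 0.032, 0.099, -0.213 and 0.170, so the numbers were not taken to pair the libraries. With the replicate number as a block, which leaves 2 residual degrees of freedom, 4 members fell by day 7 and 3 by day 15 against day 0, and 0 rose, while 4.34% and 4.26% of all rows fell.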

Other observations

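Across the 63 members, mean level and first-week log2 fold change had a Pearson correlation of -0.10, and mean level and second-week change one of 0.32. Both are descriptions across genes of the same 9 libraries, which are not independent replicates, and both measures come from the same values.

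MRPL12 is known to bind the mitochondrial RNA polymerase POLRMT as well as the ribosome. The ratio of MRPL12 to POLRMT in TPM was 1.52, 1.69 and 1.14 at day 0, 2.91, 1.90 and 2.01 at day 7 and 2.94, 2.33 and 2.69 at day 15, so each later library was above each newborn one. This pair was chosen after its values were seen and the ratio was not tested.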
